A study of Mus musculus with 48 samples.

Results

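The experiment described here asked which genes mouse embryonic stem cells transcribe differently 24 h after OCT4 is shut off. It comprises 4 of the 48 libraries of a series on stem cell transcription factors, chosen by their titles: OCT4-tetOff cells given doxycycline (DOX) for 24 h and OCT4-tetOff cells given water (H2O) for 24 h, 2 libraries each. OCT4-tetOff cells carry OCT4 under tetracycline control, so that doxycycline switches it off. Both groups were cycling cells of this 1 genotype grown in L2i medium, so nothing but the additive separates them by the labels. Doxycycline-treated cells without the tetOff system are not among the groups used here, so an effect of doxycycline itself and an effect of OCT4 loss cannot be told apart. The comparisons also use OCT4-tetOff cells given doxycycline or water for 16 h, and FOXD3-iKO cells, in which Foxd3 is removed, given 4HT (tamoxifen) or its solvent EtOH for 24 h, each group with 2 libraries. Whether the libraries of a group are separate cultures is not stated in the labels, and p-values then reflect only how far these libraries differ, which may be technical.

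New transcripts were labelled for 30 min with 4-thiouridine (4SU), a uridine analogue that is built into RNA as it is made, and the labelled RNA was sequenced. The readout is therefore close to the rate of transcription, not the stock of mRNA. The deposited counts run over the whole gene, introns included. In bulk RNA of this kind, fewer cells of a type and less RNA per cell cannot be told apart.

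OCT4, encoded by Pou5f1, is a POU-domain transcription factor that holds embryonic stem cells in the pluripotent state. It binds the octamer motif, often next to SOX2 at a composite element, and works with NANOG, ESRRB, KLF4 and other factors that maintain one another. In the mouse embryo and in stem cells, loss of OCT4 is known to let cells turn towards trophectoderm, the outer layer that makes the placenta, whereas the level of GATA factors governs the choice of primitive endoderm.

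The 24 h libraries held 21267401 to 26112435 counts each, and 17713 genes passed the filter on low counts. A count of 3, taken as the floor of detection, corresponded to 0.103 to 0.14 CPM (counts scaled to library size with TMM factors). The ribosomal RNA-bearing loci Gm26917 and Gm42418 took 27.3% and 26% of the counts in the water libraries and 21% and 18.1% in the doxycycline libraries. Their share thus moved with the treatment, and its part in the results was not tested beyond rescaling without them. Replicate log2 CPM values correlated at 0.991 or above across genes.

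Pou5f1 was transcribed at 197 and 176 CPM in the water libraries and at 58.9 and 46.2 CPM in the doxycycline libraries. The groups did not overlap, and both libraries labelled DOX were lower than both labelled H2O. Its transcription fell by 1.83 on the log2 scale (SE 0.13, adjusted p = 1.063e-05 by edgeR). Counts at the gene thus did not cease, and how far OCT4 protein fell cannot be read from them. Over 31% of its length Pou5f1 overlaps Gm19553 on the opposite strand.

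Markers of cell types were then checked. Of 10 stem cell markers, 9 were tested and all 9 were lower after doxycycline, with a summed level of 3066 and 3081 CPM in water against 1322 and 1235 CPM in doxycycline. The marker not tested was Sox2, which is listed at 0 in every library. Sox2 lies inside the same-strand gene Sox2ot. All 1555 genes of at least 1000 bp that lie wholly inside a same-strand gene with at least 800 counts have 0 counts, against 12.7% of 1933 such genes inside an opposite-strand gene only. Counts were therefore separated by strand, and Sox2 has no usable value here. Sox2ot, the long noncoding transcript over the Sox2 locus, fell by 0.70 on the log2 scale (SE 0.11). The part of these other markers in the results was not tested. Trophoblast markers summed to 61.7 and 57.2 CPM in water and 157 and 130 CPM in doxycycline, with 5 of 9 tested higher. Primitive endoderm markers summed to 14.4 and 13.2 CPM against 55.1 and 59.8 CPM, with 4 of 5 tested higher. Feeder fibroblast markers summed to 15.9 and 15.3 CPM against 28.5 and 26 CPM, carried by Pdgfrb and Thy1, while Dcn and Lum were at 0. Blood and endothelial markers summed to 36.1 and 39 CPM against 47.6 and 56.7 CPM, with 2 of 6 tested higher and 1 lower. On the log2 scale Tek was at 1.11, Cdh5 at 3.17 (3 counts in water, 35 in doxycycline) and Cd34 at -3.20. Vwf (-0.006), Spi1 (-0.67) and Gata1 (0.37) were not called. A wider list of such genes summed to 157.3 and 167.5 CPM against 101.5 and 117.3 CPM, with 2 of 8 higher and 2 lower. Among neural markers Sox1 and Tubb3 are listed at 0, but like Sox2 they lie inside same-strand genes (Sox1ot and Gm20388) and have no usable value, and Pax6, the 1 tested, stayed at or under 0.592 CPM in every library.

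After 24 h of doxycycline, transcription differed from water for 6531 of 17713 genes, 36.9% of those tested (edgeR quasi-likelihood test, Benjamini-Hochberg adjusted p under 0.05). The changes were balanced, with 3210 genes higher (18.1%) and 3321 lower (18.7%), and the median log2 fold change of all genes was -0.0074. Changes beyond 2-fold were found for 1156 higher genes (6.53%) and 1297 lower genes (7.32%). Beyond 8-fold the lower genes outnumbered the higher ones, 154 against 73. In 64% of all genes the treated and control libraries did not overlap (31.2% with the treated ones higher and 32.8% with them lower). The count rests on the spread shared with the 16 h libraries. With the 4 libraries alone it was 4215, and it was 3969 without water replicate 1. In the gene lists that follow, counts are to be read against the shares of all genes, 18.1% higher and 18.7% lower.

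**Figure D1:**
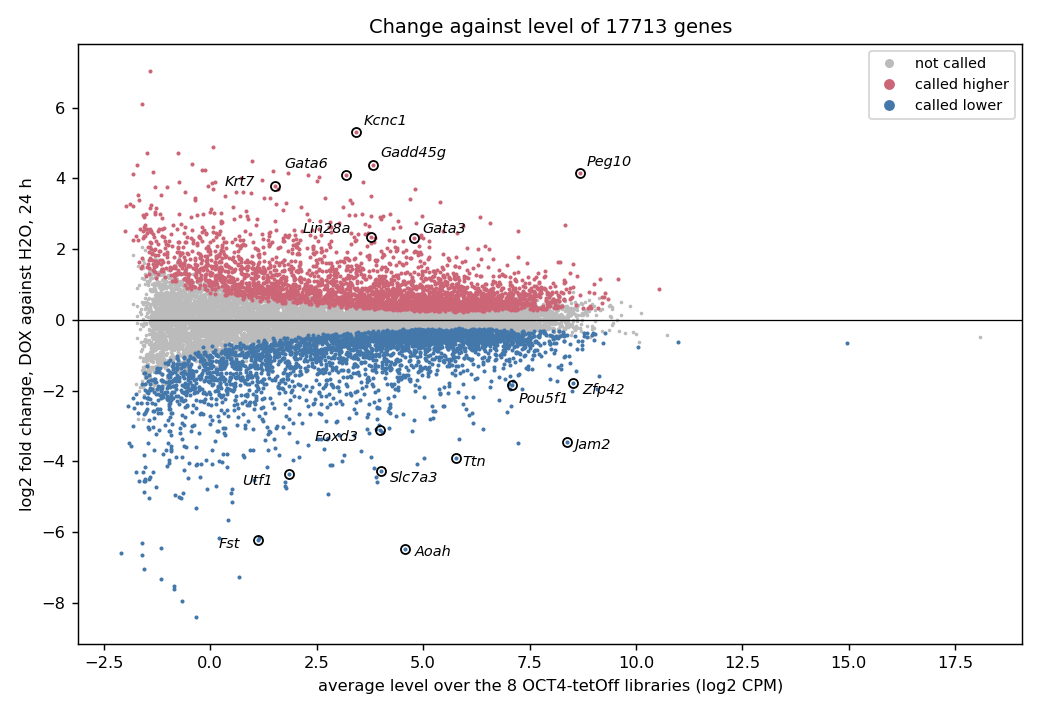
Log2 fold change of doxycycline against water at 24 h (vertical axis) against the average level in log2 CPM (horizontal axis) for the 17713 genes tested, with genes called higher in red, called lower in blue and not called in grey. Among genes of high CPM, Peg10 lies at the upper edge and Jam2 at the lower edge.

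The genes that rose most encode a mixed set of membrane, developmental and placental proteins. Kcnc1, a voltage-gated potassium channel subunit, was at 0.908 and 0.608 CPM in water and at 30.9 and 30.7 CPM in doxycycline. That is a log2 fold change of 5.31 (SE 0.17), the largest rise among genes named by the rule. Peg10, an imprinted retrotransposon-derived gene needed for the placenta, went from 60.5 and 57.2 CPM to 1180 and 912 CPM, a log2 fold change of 4.15 (SE 0.15). Both treated libraries lay far above the controls. Gata6, the GATA factor that starts primitive endoderm, went from 1.30 and 1.12 CPM to 20.7 and 21.1 CPM (4.10, SE 0.16). Gadd45g, a growth arrest and stress protein, went from 1.34 and 1.54 CPM to 32.7 and 27.7 CPM (4.39, SE 0.24). Krt7, a keratin of simple epithelia and trophoblast, went from 0.632 and 0.468 CPM to 8.30 and 7.19 CPM (3.79, SE 0.22). In all of these the groups did not overlap, which the rule that named them required. Other genes among the 15 with the largest rises went up by 3.45 to 4.21 on the log2 scale, among them the nuclear receptor Rorb, the zinc finger proteins Zfp503 and Zfp703, the calcium channel subunit Cacna2d3, the cytochrome Cyp1b1, the protease Tmprss2, the glutamate receptor Grm8, the ephrin receptor Epha3, and Lypd6b. Over 63.1% of its length Zfp703 overlaps Gm45371 on the opposite strand.

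The genes that fell most were nearly silenced. Aoah, which encodes an enzyme that inactivates bacterial lipopolysaccharide, was at 47.8 and 50.1 CPM in water and at 0.583 and 0.516 CPM in doxycycline, a log2 fold change of -6.46 (SE 0.14). It had the smallest adjusted p of all genes tested (3.136e-08, edgeR). Fst, follistatin, which binds activin, had 206 counts over the water libraries and 3 over the doxycycline libraries, a ratio of 82.7 (exact 95% interval 27.9 to 404, counting error only). Hcrtr2, an orexin receptor, went from 4.98 and 5.99 CPM to 0.0686 and 0.0738 CPM, which is under the floor of 3 counts per library. Pou2f3, a POU-domain relative of OCT4, went from 7.5 and 9.21 CPM to 0.343 and 0.258 CPM (-4.76, SE 0.24). Slc7a3, a carrier of cationic amino acids, went from 30.4 and 24.4 CPM to 1.30 and 1.51 CPM (-4.28, SE 0.20). Ttn, the gene of the muscle protein titin, went from 98.9 and 82.4 CPM to 6.58 and 5.42 CPM (-3.91, SE 0.14). Groups that do not overlap were a condition of the rule that named these genes, so their separation adds no support. The remaining genes of this 15 were Pde4b, Lefty2, Syndig1, Btla, Utf1, Pla2g4e, Kirrel2, Tcl1 and Platr7, which fell by 3.98 to 4.69. Jam2, a junctional adhesion molecule, fell by 3.45 (SE 0.11), from 598 and 635 CPM to 54.7 and 58.2 CPM.

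Naive pluripotency genes, which keep stem cells in the state of the early epiblast, were lower almost throughout: 17 of 19 tested were called lower and 0 higher, with a median log2 fold change of -1.29. Zfp42 (REX1), a zinc finger marker of naive cells, went from 538 and 515 CPM to 156 and 148 CPM (-1.79, SE 0.11). Esrrb, an orphan nuclear receptor that partners OCT4, went from 726 and 812 CPM to 253 and 264 CPM (-1.57, SE 0.12). Klf4 went from 141 and 124 CPM to 65.0 and 43.5 CPM (-1.29, SE 0.20), Klf2 and Klf5 fell by 1.89 and 1.73, and Tfcp2l1 fell by 1.45. Each of these KLF and TFCP2L1 factors activates naive genes, and each had separate groups. Tcl1, a cofactor of the kinase AKT, and Gbx2, a homeobox factor, fell furthest in this group, by 4.09 and 3.36. Nr5a2, a nuclear receptor, stood apart with 345 and 440 CPM in water and 376 and 486 CPM in doxycycline (0.14, SE 0.16), and its groups overlapped. Fbxo15 and Tbx3 fell by only 0.30 and 0.46.

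Core and general pluripotency genes were called lower in 16 of 21 cases and higher in 1, with a median of -1.04. Nanog went from 516 and 459 CPM to 315 and 234 CPM (-0.83, SE 0.15), a smaller fall than that of Pou5f1. Utf1, a chromatin factor of undifferentiated cells, went from 5.10 and 5.33 CPM to 0.377 and 0.111 CPM (-4.36, SE 0.33). L1td1, an RNA-binding protein derived from a LINE-1 element, and Dppa5a fell by 2.43 and 2.49. Foxd3, a forkhead factor and the other subject of the series, went from 21.2 and 20.2 CPM to 2.85 and 1.88 CPM. Lin28a was the single member that rose, from 5.53 and 4.49 CPM to 27.2 and 23.8 CPM (2.34, SE 0.14); it encodes an RNA-binding protein that blocks let-7 maturation. Its paralogue Lin28b (-0.15, SE 0.21) and the let-7 target Trim71 (0.23, SE 0.12) were not called. The formative and primed epiblast genes were also mostly lower, 8 of 13 with 3 higher and a median of -1.01. Otx2, a homeobox factor of the later epiblast, fell by 2.26 and Zic2 by 1.65, while Lef1 rose by 2.33 and Dnmt3a by 0.50.

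Promoters of members with an octamer match are shown because the octamer is the motif OCT4 recognises. The motif ATGCAAAT was searched on both strands in the RefSeq promoters of GRCm38.p6, from 250 bases before to 50 bases after each start, and 12418 of 17705 tested symbols had a promoter there. It occurred in 1.34% of promoters of tested genes, 1.82% of those of genes called lower and 1.11% of those called higher. Its share was 2.82% for genes lowered beyond 2-fold and 1.69% for genes raised beyond 2-fold. Beyond 8-fold it was 0.952% of 105 promoters for lower and 1.25% of 80 for higher genes, 1 match each, and it was 1.74% over all promoters in the table. Most called genes thus hold no match in this window. Of the 5 stretches below, chosen after values and sequences were seen, 3 belong to genes that fell (Zfp42, Spp1, Nanog) and 2 to genes that rose (Slc7a11, Gadd45g). Capitals mark the octamer on either strand, or for Nanog its first 7 letters, ATGCAAA, which occur in 3.5% of promoters of tested genes. All run 5′ to 3′ on the strand of the gene and end before its start.
Zfp42: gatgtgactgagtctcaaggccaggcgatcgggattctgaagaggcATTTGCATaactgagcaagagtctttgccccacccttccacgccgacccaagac
Spp1: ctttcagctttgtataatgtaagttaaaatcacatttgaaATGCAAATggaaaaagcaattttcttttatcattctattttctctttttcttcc
Nanog: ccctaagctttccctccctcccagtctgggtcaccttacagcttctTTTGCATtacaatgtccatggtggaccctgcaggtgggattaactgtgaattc
Slc7a11: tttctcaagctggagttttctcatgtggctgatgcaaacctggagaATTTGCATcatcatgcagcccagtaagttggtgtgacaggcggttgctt
Gadd45g: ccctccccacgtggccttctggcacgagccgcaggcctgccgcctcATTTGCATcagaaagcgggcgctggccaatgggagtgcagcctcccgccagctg

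The Zfp42 stretch is chr8:43307142-43307241 on the minus strand, with the motif starting 186 bases before the start. The Spp1 stretch is chr5:104435942-104436035 on the plus strand, and its motif starts 210 bases before the start of this secreted phosphoprotein gene, which fell by 1.06 (SE 0.22). The Nanog stretch is chr6:122707368-122707466 on the plus strand, where the motif starts 75 bases before 1 RefSeq start and at -151 from another. There the capitals are followed, after a single t, by acaatg, the reverse complement of the SOX motif CATTGT, which makes the composite OCT4 and SOX2 element for which this promoter is known. The Slc7a11 stretch is chr3:50443614-50443708 on the minus strand, with the motif 49 bases before the start of this cystine transporter gene. The Gadd45g stretch is chr13:51846526-51846625 on the plus strand, with the motif 103 bases before the start. Genes with the motif this close to the start thus moved in both directions, and a match is a description of letters, not of binding.

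**Figure D2:**
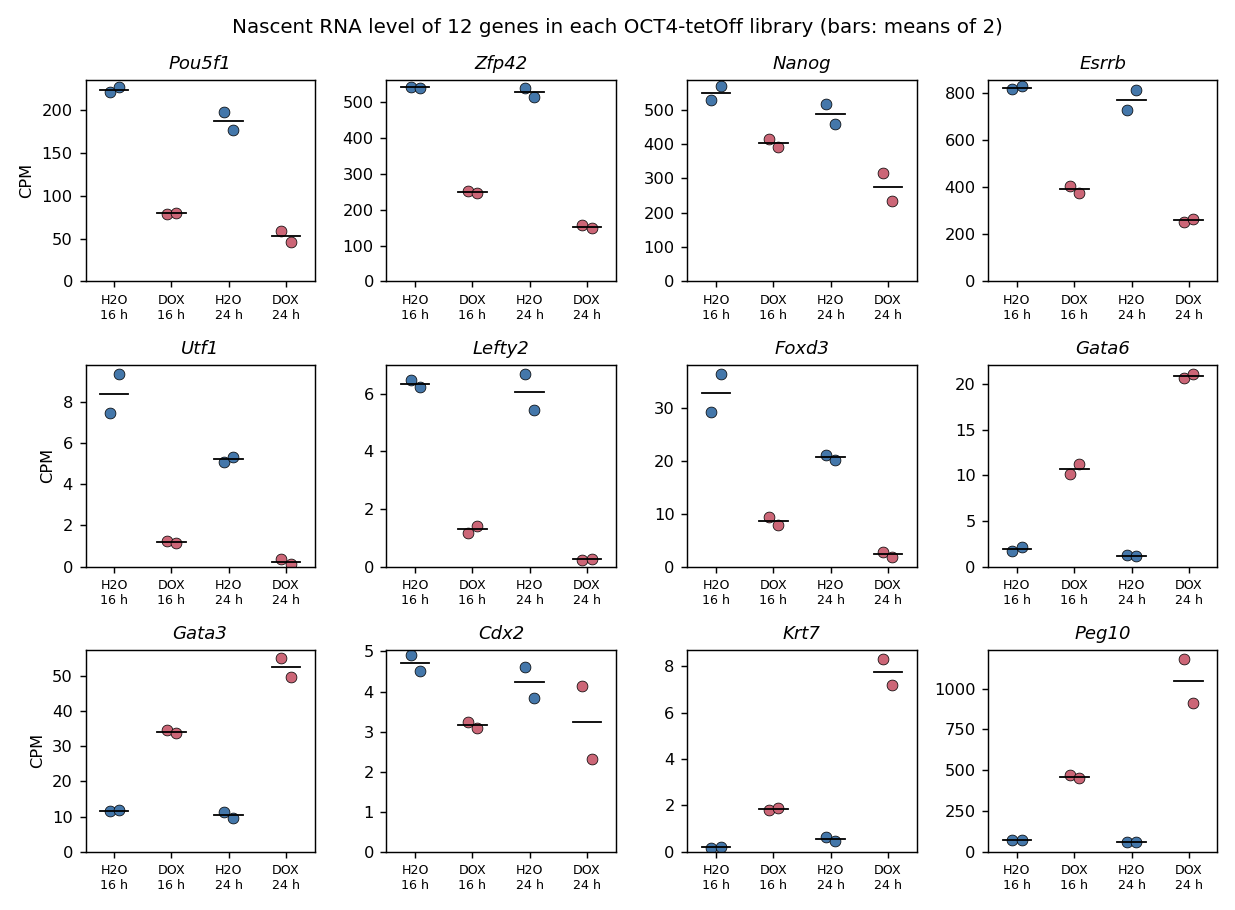
CPM (vertical axes, each from 0) of 12 genes in the 8 OCT4-tetOff libraries, water in blue and doxycycline in red, at 16 h and 24 h; points are libraries and bars are means of 2. Pou5f1, Zfp42, Nanog, Esrrb, Utf1, Lefty2 and Foxd3 are lower and Gata6, Gata3, Krt7 and Peg10 higher in both doxycycline libraries at 24 h, whereas the Cdx2 groups overlap at 24 h.

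In the NODAL pathway, a TGF-beta branch active in stem cells, 7 of 15 tested genes were lower and 1 was higher, with a median of -0.22. Among the members that fell were ligands, a co-receptor, antagonists, a cofactor and a protease. Nodal went from 104 and 100 CPM to 54.9 and 44.4 CPM (-1.04, SE 0.12), and Gdf3, a related ligand, and the co-receptor Tdgf1 (CRIPTO) fell by 2.08 and 2.06. The antagonist Lefty2, itself a NODAL target, went from 6.67 and 5.42 CPM to 0.240 and 0.258 CPM (-4.58, SE 0.25), and its neighbour Lefty1 fell by 2.66. Foxh1, the pathway's DNA-binding cofactor, fell by 1.68, and Pcsk6, a protease that matures the ligand, by 1.52. Of the signal transducers and receptors, Smad2 (0.25, SE 0.14), Smad4 (0.28, SE 0.16), Acvr1b and Acvr2b were not called, and Smad3 rose by 0.88.

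Fgf4, the main FGF ligand of stem cells, went from 186 and 164 CPM to 63.9 and 43.2 CPM (-1.71, SE 0.18). Of genes often used as readouts of ERK activity, Dusp6 fell by 1.81 (SE 0.18), Etv5 by 1.01 and Etv4 by 0.95. The list as a whole had 8 of 18 lower, 2 higher and a median of -0.16, and ERK activity itself was not measured. Of the feedback inhibitors Spry4 rose by 0.91 and Spry2 fell by 0.43. Of the receptors Fgfr1 (-0.05, SE 0.10), Fgfr2 (0.03, SE 0.09) and Fgfr3 (1.69, SE 0.63) were not called and Fgfr4 fell by 0.61, as did the co-receptor gene Klb, by 1.46. Of WNT feedback genes and TCF/LEF factors 10 of 20 were higher and 2 lower, with a median of 0.62. With the length trend removed these were 10 and 3, with a median of 0.43, and with the 4 libraries alone 8 and 1. The feedback target Axin2 went from 140 and 147 CPM to 288 and 270 CPM (0.96, SE 0.10), Sp5 rose by 1.25, Nkd1 by 1.43 and the ligand gene Wnt6 by 1.53. Lef1, a transcription factor of the pathway, went from 1.30 and 1.82 CPM to 6.58 and 9.04 CPM. Ccnd1, often counted as a WNT target, instead fell by 1.32 (SE 0.12).

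Among BMP genes, Bmp4 fell by 1.84 (SE 0.16), and of its target genes, which encode inhibitors of bHLH factors, Id3 went from 23.1 and 18.3 CPM to 2.85 and 2.40 CPM (-2.98, SE 0.17). Id1 fell by 0.95, Id4 rose by 0.80 and Id2 was not called (0.84, SE 0.31). The other members called higher were Msx1 (2.24, SE 0.50), Smad6 (0.90, SE 0.16), Msx2 (0.60, SE 0.16), Bmp7 (0.41, SE 0.12) and Smad5 (0.41, SE 0.08). The whole list had 6 of 17 higher and 3 lower, with a median of 0.41, and 10 higher with total counts alone, without the low-count filter or with the replicate block. With the length trend removed its median was 0.20. NOTCH genes had 5 of 12 lower and 0 higher, led by the receptor Notch4 (-1.88, SE 0.12) and the ligand Jag1 (-1.19, SE 0.12), and 3 lower without water replicate 1. In the LIF pathway, which sustains these cells through STAT3, Socs3, a STAT3 feedback inhibitor, rose by 1.35 (SE 0.28) and Stat3 by 0.53, while its naive targets Klf4 and Tfcp2l1 are among the 5 of 14 that fell (3 with the 4 libraries alone). Of HIPPO pathway genes and targets 1 of 10 was higher and 3 were lower, with a median of -0.13. With the length trend removed these were 2 and 5. The target Ccn2 was at -2.62 (SE 0.18), and the pathway genes Tead4 and Amot were at -1.11 and 1.05. Ccn1, another target, was not called (0.16, SE 0.18).

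Trophectoderm regulators were called higher in 11 of 23 cases and lower in 5, with a median of 0.55. Without water replicate 1 the higher ones were 7. Gata3, a GATA factor that can start the trophoblast programme, went from 11.4 and 9.59 CPM to 55.0 and 49.7 CPM (2.32, SE 0.11), and Tfap2c from 31 and 32 CPM to 67.8 and 52.9 CPM (0.94, SE 0.12). Both were clear of the controls. Esx1, Satb1 and the X-linked homeobox genes Rhox6 and Rhox9 rose by 1.27 to 1.96. Cdx2, the homeobox factor that defines trophectoderm, was not called: it was at 4.62 and 3.83 CPM in water and at 4.15 and 2.32 CPM in doxycycline (-0.38, SE 0.25, adjusted p = 0.246 by edgeR). Without doxycycline replicate 1 it was called lower, at -0.85. Eomes (0.07, SE 0.15) and Hand1 (1.07, SE 0.51), both needed for trophoblast, were not called. Elf5 was not tested, with 1 to 6 counts per 24 h library. Tfap2a, Cdx1, Tead4, Bmp4 and Ets2 fell, by 0.45 to 1.84.

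Keratins and differentiation genes of trophectoderm were higher in 10 of 19 cases and lower in 2, with a median of 0.75. Besides Krt7, Krt19 went from 0.474 and 0.421 CPM to 2.30 and 1.84 CPM (2.19, SE 0.32) and Krt18 from 1.11 and 1.45 CPM to 4.08 and 3.47 CPM (1.57, SE 0.23). Their partner Krt8 lay just outside the threshold at 0.65 (SE 0.23, adjusted p = 0.052 by edgeR and 0.0449 by DESeq2), with groups that did not overlap. Plac1, a placental membrane protein, went from 0.632 and 1.22 CPM to 6.24 and 9.52 CPM (3.11, SE 0.31). The junction genes of epithelia had 11 of 23 higher and 3 lower, with a median of 0.43. With the length trend removed these were 12 and 5, with a median of 0.26, and with the 4 libraries alone 8 and 3. The claudin genes Cldn3, Cldn4 and Cldn6 rose by 1.30 to 1.94 and the desmosomal gene Dsp by 1.04, whereas Jup, plakoglobin, fell by 1.52 (SE 0.09). Cdh1, E-cadherin, was not called, at 146 and 172 CPM against 155 and 160 CPM (-0.01, SE 0.11).

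Primitive endoderm genes were called higher in 9 of 16 cases and lower in 1, with a median of 0.80. Next to Gata6, the basement membrane collagens Col4a1 and Col4a2, which lie head to head, went from 16.2 and 20.8 CPM to 96.6 and 107 CPM (2.46, SE 0.13) and from 13.9 and 15.9 CPM to 75.8 and 93.9 CPM (2.51, SE 0.14). Lamb1, a laminin chain, rose by 1.49 (SE 0.08), while the laminin gene Lama1 fell by 0.85 and Lamc1 was not called (-0.29, SE 0.14). Dab2, an endocytic adaptor of this lineage, and the receptor gene Pdgfra rose by 1.68 and 1.18. Other regulators of the lineage had low counts. Gata4 was at 1.19 and 1.22 CPM against 1.37 and 2.32 CPM and not called, Sox17 had 3 counts in the water libraries against 25 in the doxycycline libraries (ratio 6.92, exact 95% interval 2.11 to 35.8), and Sox7 and Foxa2 had at most 2 counts in any 24 h library. The call of Sox17 was lost without water replicate 1 (adjusted p = 0.072 by edgeR).

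Of 10 mesoderm and primitive streak genes, with a median of 0.32, 3 were higher and 4 lower, against 18.1% and 18.7% of all genes. These became 2 and 1 without water replicate 1, and 1 and 2 without water replicate 2 or without doxycycline replicate 2. Without either water library of 16 h they were 3 and 2. T (brachyury), the defining factor of the streak, went from 1.26 and 1.03 CPM to 0.137 and 0.0738 CPM, the last value under the floor of 3 counts. Mixl1 and Gsc fell as well, by 1.38 and 1.57. Among 5 neural genes Pax3 rose by 3.02 (SE 0.37) and Map2 by 1.85, and Ncam1 fell by 1.63. Germline and meiotic genes were higher in 9 of 18 cases and lower in 3, with a median of 0.71. Ddx4, an RNA helicase of germ cells, went from 7.27 and 7.29 CPM to 17.9 and 20.4 CPM (1.40, SE 0.12), and the piRNA pathway gene Tdrd1 and the meiotic genes Stra8, Sycp1 and Sycp3 rose by 1.06 to 2.12. Imprinted genes were higher in 12 of 20 cases and lower in 2, with a median of 0.71. Alongside Peg10, its neighbour Sgce rose by 1.76, the antisense transcript Airn by 2.07 and H19 by 2.21, while Grb10 fell by 1.81. Igf2 is listed at 0. Of 13 retinoic acid and HOX genes 6 were higher and 4 lower, with Meis1 at 1.45 and Rarg at -1.50. Of the two-cell-like genes 1 of 11 was called, Zfp352 at -2.17, and the Zscan4 genes not called.

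**Figure D3:**
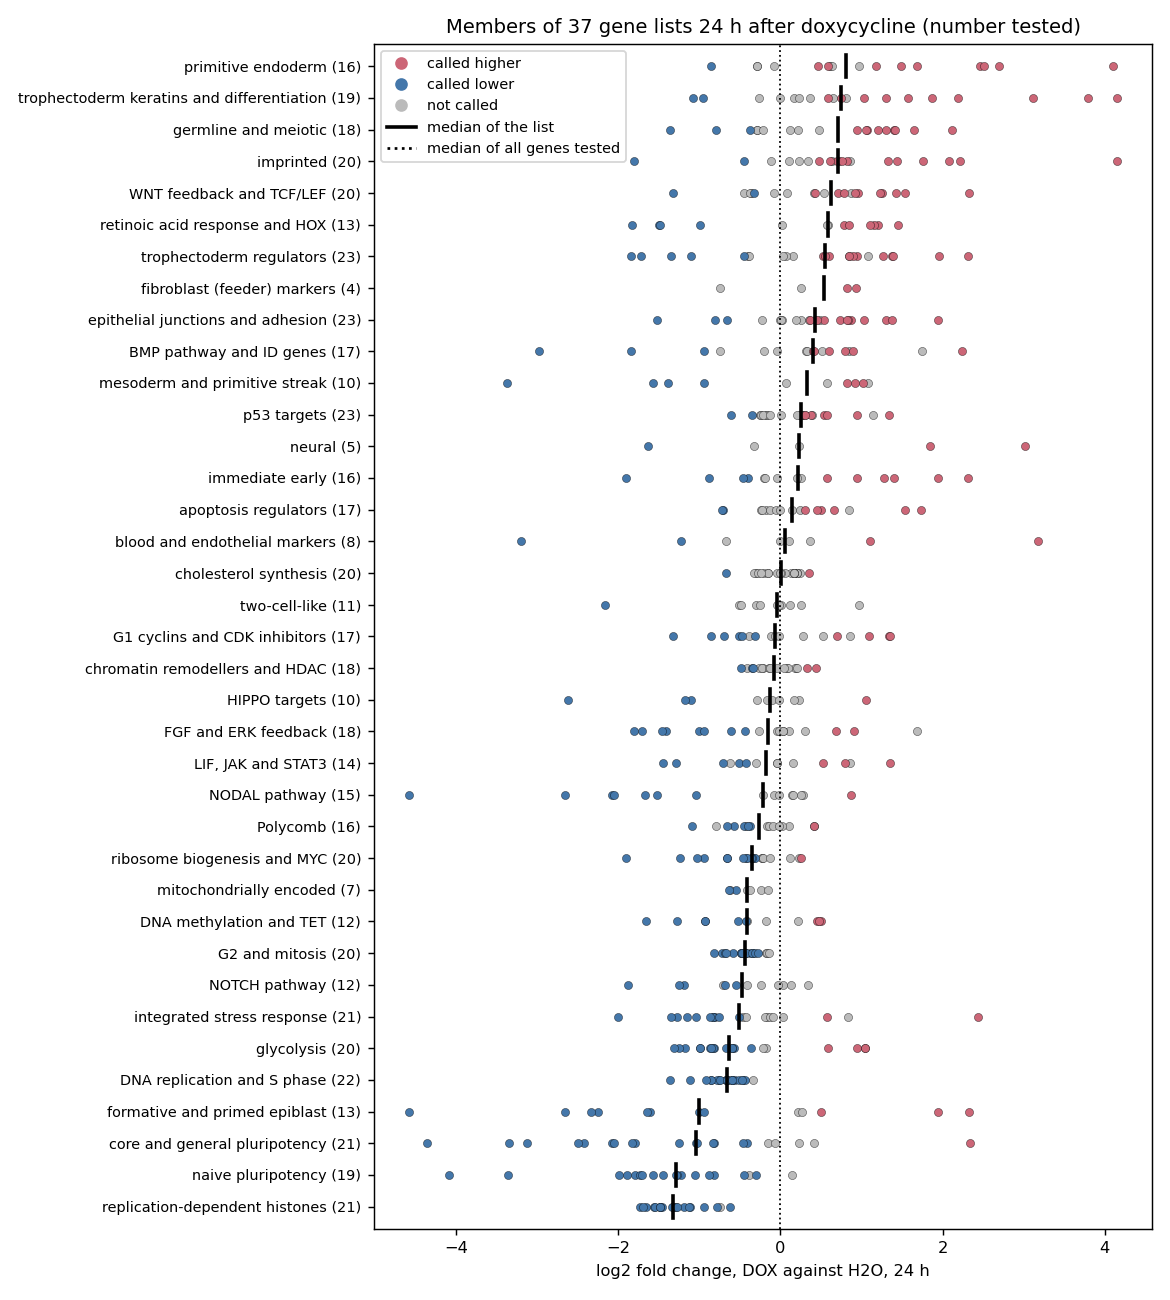
Log2 fold change at 24 h (horizontal axis) of each tested member of 37 gene lists (rows, ordered by median, number tested in brackets), coloured red where called higher, blue where called lower and grey where not called; thick bars are list medians and the dotted line is the median of all genes. Medians run from 0.80 for primitive endoderm to -1.33 for replication-dependent histones, and the naive, core and formative lists lie next to the histones.

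Of 22 tested DNA replication genes, 21 were called lower and 0 higher, with a median of -0.66. Pcna, the replication clamp, went from 141 and 97.4 CPM to 64.4 and 45.5 CPM (-1.12, SE 0.19), and Rrm2, a subunit of the enzyme that makes deoxynucleotides, from 140 and 117 CPM to 57.5 and 41.9 CPM (-1.37, SE 0.16). The helicase genes Mcm2 to Mcm7 fell by 0.46 to 0.91, and E2f1, which drives their transcription, by 0.76. Pola1, the 1 uncalled member, had overlapping groups. Genes of G2 and mitosis were lower in 17 of 20 cases, with a median of -0.44. That count was 9 without water replicate 1, 10 without doxycycline replicate 2, 9 with total counts alone and 7 with the 4 libraries alone. Ccna2 fell by 0.82, Cdk1 by 0.72, and Mki67, the usual marker of cycling cells, by 0.27. Replication-dependent histone genes, transcribed in S phase, were lower in 20 of 21 cases, with a median of -1.33. Without water replicate 1 these were 12 and -1.05. Hist1h1a, for example, went from 189 and 118 CPM to 62.2 and 35.3 CPM (-1.66, SE 0.27). These histone genes are very short, and with the trend in gene length removed their median was -0.88. The medians of the replication and mitosis lists were -0.64 and -0.43 under the same setting.

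Regulators of G1 moved in both directions, with 4 of 17 higher and 6 lower (3 lower without water replicate 1). Cdkn1a (p21), an inhibitor of cyclin-dependent kinases, went from 200 and 199 CPM to 544 and 462 CPM (1.33, SE 0.12), and Cdkn2b (p15) and Ccnd2 rose by 1.09 and 1.35. Ccnd1, Ccne1 and Ccne2, the cyclins of G1 and of entry into S phase, fell by 0.69 to 1.32. Cdkn1a is also a p53 target. Of 23 such genes tested, 6 were higher (26.1%, against 18.1% of all genes) and 2 lower (8.7%, against 18.7%), with a median of 0.25. With the 4 libraries alone 2 were higher, and with the length trend removed 10. Mdm2, the feedback regulator of p53, rose by 0.54 and Plk2 by 0.94, and the cell death genes Bax (-0.24, SE 0.12) and Bbc3 (-0.17, SE 0.11) were not called. Among apoptosis regulators, Bcl2l11 (BIM) went from 33.2 and 35.4 CPM to 96.5 and 101 CPM (1.53, SE 0.09), and Bmf from 5.29 and 4.96 CPM to 17.4 and 16.9 CPM (1.74, SE 0.12). These genes encode BH3-only proteins, which promote cell death. Bid, another of that class, and the survival gene Birc5 fell by 0.71 and 0.72. In all, 6 of 17 were higher and 2 lower, against 18.1% and 18.7% of all genes. The higher ones were 2 without water replicate 1 and 3 with the 4 libraries alone, and the lower ones were 4 without doxycycline replicate 1.

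Glycolysis genes were lower in 14 of 20 cases and higher in 4, with a median of -0.64. Hk2 (-1.18, SE 0.10), Ldha (-1.25, SE 0.14) and the lactate exporter Slc16a3 (-1.32, SE 0.15) fell, while the alternative forms Hk1 (0.94, SE 0.09) and Ldhb (1.04, SE 0.12) rose. Hk1 went from 46.8 and 50.5 CPM to 93.2 and 93.3 CPM, and Hk2 from 176 and 171 CPM to 79.8 and 73.6 CPM. In each of these hexokinase genes the groups were well apart. The glucose transporter genes Slc2a1 and Slc2a3 rose by 1.04 and 0.59. Genes of the integrated stress response, many of them targets of ATF4, were lower in 11 of 21 cases and higher in 2, with a median of -0.52. The amino acid synthesis genes Asns, Phgdh and Psat1 fell by 0.83 to 1.28, and Slc7a11 went from 0.671 and 0.608 CPM to 3.15 and 3.84 CPM (2.43, SE 0.23). Ribosome biogenesis genes were lower in 12 of 20 cases and higher in 1, with Myc at -1.91 (SE 0.27), Mycn at -1.04 and Ubtf, a factor of ribosomal RNA transcription, at -1.24. The 12 became 7 without doxycycline replicate 2 and 6 with total counts alone or with the 4 libraries alone. Of cholesterol synthesis genes 1 of 20 was higher and 1 lower, with a median of 0.00; with the length trend removed these were 4 and 5. Of 7 tested mitochondrially encoded genes 2 were called lower, mt-Nd1 and mt-Nd6, and the list's median of -0.41 was 0.05 with the length trend removed. The count was 0 with the 4 libraries alone and without any single 16 h library, water replicate 1 or doxycycline replicate 2, but 5 without water replicate 2 and 6 without doxycycline replicate 1.

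Of the immediate early genes, which respond within minutes to stimuli, 6 of 16 were higher and 4 lower (2 lower with total counts alone or the 4 libraries alone). The AP-1 genes Jun, Jund, Fos and Fosl2 were among the higher ones, with Jun going from 5.84 and 4.39 CPM to 29.4 and 21.8 CPM (2.31, SE 0.18), whereas Junb was not called (-0.20, SE 0.24). The remodeller and deacetylase list had 2 of 18 higher and 3 lower, against 18.1% and 18.7% of all genes, and 1 higher and 9 lower with the length trend removed. Polycomb genes had 6 of 16 lower and 1 higher, among them Epop (-1.09, SE 0.16), Suz12 (-0.66) and Eed (-0.57), while Ezh2 was not called (0.10, SE 0.16). The 6 became 3 without either water library of 16 h or with total counts alone, and 2 with the 4 libraries alone. In DNA methylation, Zfp57, which guards imprints, went from 372 and 317 CPM to 122 and 95.9 CPM (-1.66, SE 0.14), Tet2 fell by 1.27, Uhrf1 by 0.93 and Dnmt1 by 0.52. The de novo enzyme gene Dnmt3a rose by 0.50, Dnmt3b was not called (0.21, SE 0.11), and its cofactor Dnmt3l fell by 0.94.

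The direction of change went with gene length. With tested genes in 4 nearly equal bins by length, 7.25% of the shortest bin were higher and 26.5% lower, and of the longest bin 29.6% were higher and 11.5% lower. The median gene called higher was 42396 bp long and the median gene called lower 13915 bp, against 21938 bp for all tested. Across genes, length and log2 fold change had a Spearman rho of 0.308 at 24 h and 0.123 at 16 h, values that describe genes sharing the same libraries. Libraries of 1 group differed by length as well: the log2 ratio of replicate 2 to replicate 1 had a rho of 0.495 with length in water and 0.634 in doxycycline. The median of that ratio went from -0.202 in the shortest bin to 0.248 in the longest in water and from -0.32 to 0.32 in doxycycline, and the median log2 fold change between treatments from -0.285 to 0.251. The part of length in the calls was not tested beyond removing the trend. With the trend removed, 8237 genes were called, and 6017 of the 6531 calls were kept in the same direction and 7 changed sign.

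**Figure D4:**
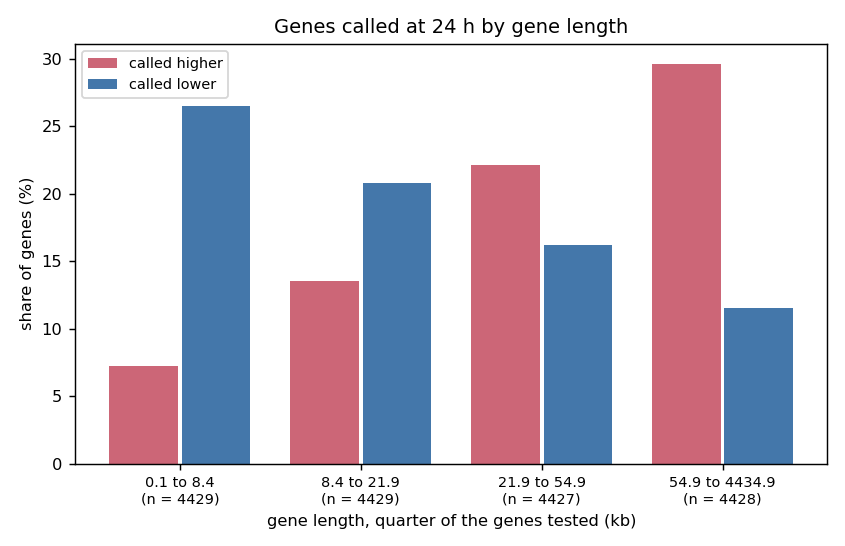
Share of tested genes called higher (red) and lower (blue) at 24 h, in percent (vertical axis from 0), by gene length in 4 nearly equal bins, in kb (horizontal axis, number of genes in brackets). The share of higher genes goes up from 7.25% to 29.6% and that of lower genes down from 26.5% to 11.5%.

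The same comparison at 16 h called fewer genes. At 16 h, 2986 of the same 17713 genes were called (16.9%), 7.94% higher and 8.91% lower, and the 1235 genes higher at both times make up 38.5% of those higher at 24 h and 87.8% of those higher at 16 h. For lower genes the 1370 shared ones are 41.3% and 86.8%. Of the 6531 genes, 2 were called in the opposite direction at 16 h. Genes higher at 24 h had a median log2 fold change of 0.78 at that time and 0.45 at 16 h, and genes lower at 24 h had -0.79 and -0.42, a comparison that favours 24 h because the genes were chosen there. All 30 genes with the largest changes were already called at 16 h, 29 of them with a smaller change; Pla2g4e, a phospholipase, was at -4.37 at 16 h and -4.19 at 24 h.

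The test of the difference between the times itself called 0 genes (edgeR), with 1952 (11%) at an unadjusted p under 0.05, and DESeq2 called 90. No single gene can thus be said to have changed its response by edgeR. Among genes named by the rule, Lefty2 went from -2.29 at 16 h to -4.58 at 24 h (difference -2.29, SE 0.36), Gata6 from 2.48 to 4.10 (1.61, SE 0.25) and Peg10 from 2.67 to 4.15 (1.48, SE 0.19), with adjusted p of 0.107, 0.106 and 0.106 (edgeR). Bcl2l11 went from 0.59 to 1.53 (0.94, SE 0.12). Its p was the smallest among genes with no provisional symbol and a mean log2 CPM of 1 or more. Of the replication genes 4 were called lower at 16 h, and of the mitosis genes 0: Rrm2 was at -0.33 and Ccna2 at -0.06 then, neither called, and these differences were not called either.

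**Figure D5:**
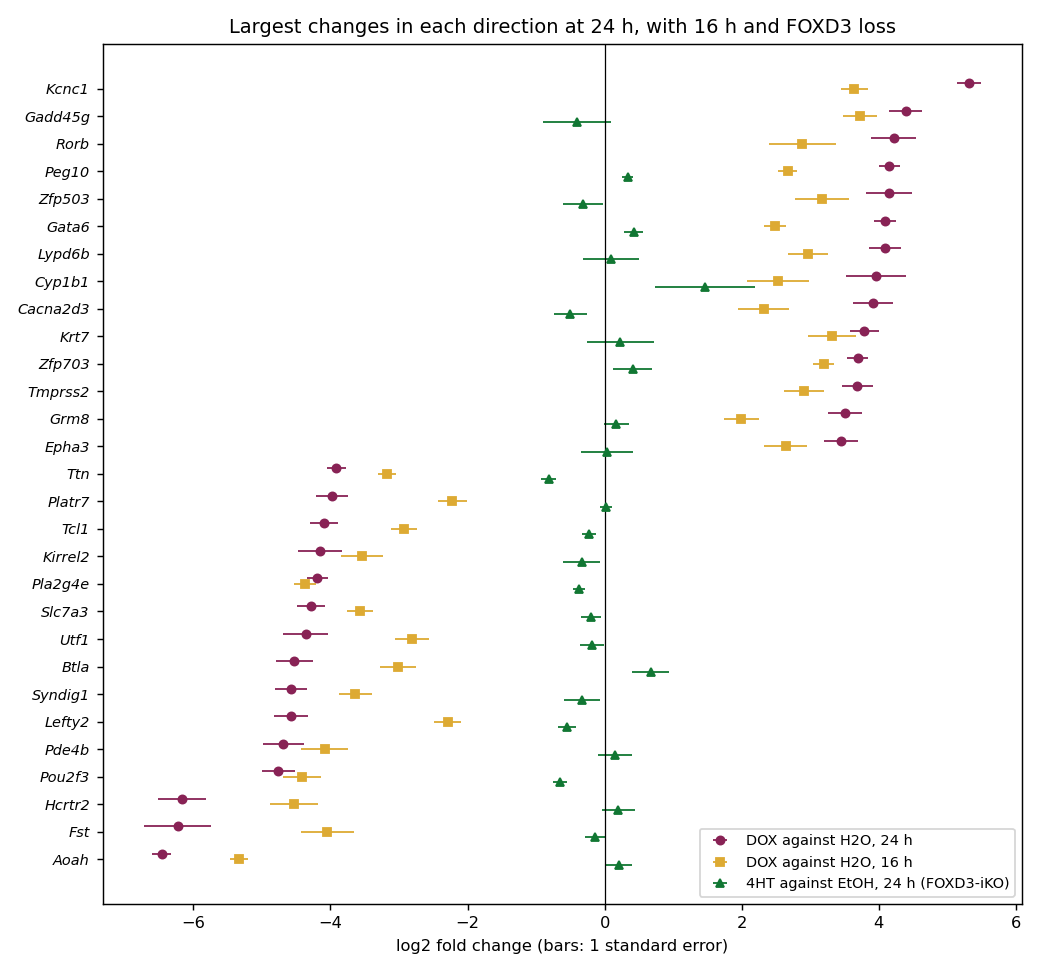
Log2 fold changes (horizontal axis, bars 1 standard error) of 14 of the 15 genes with the largest rise and the 15 with the largest fall at 24 h: doxycycline at 24 h (circles), doxycycline at 16 h (squares) and 4HT in FOXD3-iKO cells at 24 h (triangles, where tested). In all genes shown but Pla2g4e the 24 h value lies farther from 0 than the 16 h value, and the FOXD3 values lie between -0.82 and 1.47.

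Because Foxd3 transcription also fell after doxycycline, the 24 h response was compared with that to 4HT in FOXD3-iKO cells at the same time. There 90 of 18707 genes were called (0.481%), 75 higher (0.401%) and 15 lower (0.0802%). The difference of the 2 responses, fitted over both lines, was called for 3039 of 18437 genes (16.5%), 1365 with the doxycycline response higher (7.4%) and 1674 with it lower (9.08%). Gata6 differed by 3.67 (SE 0.21), Peg10 by 3.81 (SE 0.22) and Aoah by -6.67 (SE 0.21), and none of them was called after 4HT. Of the 15 genes lowered by 4HT, 11 were lower after doxycycline (73.3% of the former and 0.331% of the latter), against a background of 18.7%. Of the 75 raised by 4HT, 18 were also higher after doxycycline (24%, against a background of 18.1%, and 0.561% of the latter) and 15 were lower (20%, against 18.7%), both near the background.

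Among the shared genes, Ttn fell by 3.91 after doxycycline and by 0.82 after 4HT, Pou2f3 by 4.76 and 0.65, and Stmn2, a neuronal tubulin-binding protein, by 2.70 and 0.75. Each was thus lowered in both lines, and the difference was called for all of them. Mdm2 and Plk2, targets of p53, rose in both, with 0.54 and 0.94 after doxycycline and 0.65 and 1.02 after 4HT, and Tfap2c rose by 0.94 and 0.74; these differences were not called. Trp73, a p53 relative, went in opposite directions, with -2.81 (SE 0.19) after doxycycline and 0.73 (SE 0.13) after 4HT. Prmt8, an arginine methyltransferase, did so the other way round, with 0.79 (SE 0.12) and -0.71 (SE 0.09). The genes of this paragraph were chosen from those called in both comparisons after their values were seen. Foxd3 itself fell more after doxycycline than after 4HT, with a difference of log2 fold changes of -1.67 (SE 0.26). In FOXD3-iKO cells it went from 8.47 and 10.1 CPM in EtOH to 3.35 and 3.41 CPM after 4HT. Its starting level was thus lower there than in the water libraries, and the difference is not one of final levels. The cell line, the inducer and the solvent all differ between these experiments and cannot be told apart from the factor removed.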

How the data were processed

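Counts per gene were made by the authors with STAR and featureCounts on mm10, per the submitters' processing notes; the sources used here give no versions and no strand or multimapping settings. The deposited counts cover 54752 genes from first to last base. Gene symbols came from a table of gene IDs, which matched 54723 IDs after the version was removed. No count column was left unmapped. Genes, lists and members were chosen with earlier results of these data known.

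Tests used edgeR 4.0.16 in R 4.3.3 (TMM factors, filterByExpr with a minimum count of 10, glmQLFit and glmQLFTest, Benjamini-Hochberg adjustment over all genes tested, called under 0.05). The fit over the 8 OCT4-tetOff libraries, with 1 mean per group and 4 residual degrees of freedom, gave the 24 h comparison and its difference from 16 h. A joint fit of the 8 cycling-cell libraries at 24 h gave the difference from FOXD3 loss. Standard errors are the absolute log2 fold change over the root of F. CPM are computed from counts and TMM-scaled totals. Intervals and floors cover counting error only, since no molecular identifiers are named. The 24 h libraries hold 21267401 to 26112435 counts. The steps were tested on simulated counts.

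Genes named are, per direction, the 15 largest changes at 24 h and the 10 smallest p of each difference between responses, taken from called genes with no provisional symbol, groups that do not overlap and a mean log2 CPM of 1 or more; Pou5f1 and Foxd3; and members of 37 lists by smallest p or as defining regulators. No lists were tested as sets. Some genes that meet the rule are not reported here. Alternatives were DESeq2 1.42.0, other scalings, other count filters, the replicate number as a block, a removed length trend, the 4 libraries alone and each library left out. Thymidine-synchronised libraries were not used here. Promoter stretches are from RefSeq, GRCm38.p6.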

Additional observations from a re-analysis of the deposited data

Results flagged for a closer look

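Responses to doxycycline in OCT4-tetOff cells and to 4HT in FOXD3-iKO cells at 24 h differed for 3039 genes in the joint edgeR fit, and the following genes had the smallest p in each direction; all values are differences of log2 fold changes, doxycycline minus 4HT. The difference was positive for the placental gene Peg10 (3.813), the endoderm factor Gata6 (3.67), the lipid droplet gene Cidea (2.473), the basement membrane collagens Col4a1 (2.496) and Col4a2 (2.526), the myosins Myh7b (2.616) and Myo3b (3.077), the protein kinase A subunit Prkar2b (2.722), the calcium channel subunit Cacna2d3 (4.408) and the glutamate receptor subunit Grin3a (4.228). It was negative for Aoah (-6.673), the cation channel Trpm1 (-3.213), the phospholipase Pla2g4e (-3.83), the cytokine feedback gene Socs2 (-2.835), the transporters Slc7a3 (-4.091) and Slc28a1 (-2.712), the antisense transcript Rsf1os1 (-3.63), the adaptor She (-2.709), the junctional gene Jam2 (-3.208) and the noncoding Platr7 (-4.002). Rsf1os1 lies wholly inside Rsf1 on the opposite strand. None of these 20 genes was called after 4HT (edgeR), against 0.481% of all genes tested there. They were picked for differing from the 4HT response, so this count adds no support.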

How the results depend on the processing

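With 2 libraries per group, 1 library can move the counts. At 24 h the count of 6531 genes ranged from 3969 (without water replicate 1) to 7851 (without doxycycline replicate 1) when each library was left out, and was 4215 with the 4 libraries alone and 8237 with the length trend removed. Total counts alone gave 6140 calls, 57.8% of them higher against 49.2%. The scaling outside Gm26917 and Gm42418 gave 5898, 43.9% of them higher, and moved the median of all genes to -0.08. For the difference from 16 h, with 0 calls, DESeq2 gave 90, total counts alone 50, no low-count filter 457, the removed length trend 628, and leaving out single libraries 0 to 204 (204 without doxycycline 24 h replicate 1, 3 without its replicate 2). For the difference from FOXD3 loss, 3039 calls became 5093 with the length trend removed, and 1438 to 4860 with single libraries left out: 1878 without water replicate 1, 4860 without doxycycline replicate 1, 1438 and 1720 without EtOH replicates 1 and 2, and 1995 and 1533 without 4HT replicates 1 and 2. The causes were not tested.

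Whether libraries of the same replicate number form pairs is not stated in the labels, and the main fit treats them as unpaired. Deviations of same-numbered doxycycline and water libraries at 24 h correlated at 0.418 across genes. Other pairs of groups gave -0.117 to 0.141. With the replicate block the 3 counts were 7409, 0 and 2697. Of 2935 refits of 173 genes named or listed, 2860 kept direction and side of the threshold, 58 lost the call, 11 gained it and 6 changed sign. Many of these genes were chosen for large changes or small p in the same libraries, so kept calls are no independent check. The sign changes were in 3 genes. Eomes, not called, was at -0.04483 without water replicate 2 and ranged from -0.08975 to 0.2269 with single libraries left out. Nr5a2, not called, was at -0.1322 with the length trend removed and at -0.02969 without water replicate 1, and ranged from -0.05937 to 0.3288. mt-Nd6 was at 0.04832 with the length trend removed. All 320 refits of the 20 differences from FOXD3 loss kept their call. Those genes had the smallest p of this same comparison, so that outcome was nearly fixed by their choice. The medians of the blood, cholesterol, two-cell-like and mitochondrial lists changed sign under at least 1 scaling or the length setting. Genes under the floor of 3 counts per library have no reliable fold change.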

Other observations

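Platr genes encode pluripotency-associated noncoding transcripts and were looked at after Platr7 had been seen among the largest falls. Of 24 tested, 19 were called lower at 24 h and 1 higher, with a median log2 fold change of -1.11, against 18.7% lower among all genes. Platr10 went from 69.8 and 53.7 CPM to 18.6 and 14.3 CPM (-1.91, SE 0.15), and Platr11 from 11.8 and 10.0 CPM to 0.857 and 0.885 CPM (-3.64, SE 0.20). Platr4, at 68.4 and 58.5 CPM against 72.5 and 64.3 CPM, was not called, and Platr1 was the member that rose (0.57, SE 0.19). None of the 24 was called after 4HT in FOXD3-iKO cells, where only 0.481% of all genes were, so this count is near the background.

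Genes of the aryl hydrocarbon receptor, a sensor of planar aromatic compounds, were looked at after Cyp1b1 had been seen among the largest rises. The receptor gene Ahr went from 52.9 and 53.1 CPM to 126 and 126 CPM (1.25, SE 0.09). Its targets Cyp1a1 (3.30, SE 0.27), Ahrr (2.09, SE 0.21) and Nqo1 (1.27, SE 0.09) rose with Cyp1b1, and Cyp1a1 went from 0.592 and 0.701 CPM to 6.38 and 6.42 CPM. Another target, Tiparp, fell by 0.62 (SE 0.09). With the receptor gene and Cyp1b1, which prompted the look, included, 5 of 6 tested were higher and 1 lower. Of all genes 18.1% were higher and 18.7% lower. All 6 were called in the same direction at 16 h, where 7.94% of all genes were higher and 8.91% lower. None was called after 4HT, against 0.481% of all genes, which is near the background. Whether doxycycline or OCT4 loss goes with these changes cannot be told apart here.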
